A study of Homo sapiens with 23 samples.

Results

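Isoform usage was measured in SUDHL5 cells after 4 h with 30 nM CDK-TCIP1, as the share that each annotated transcript held of its gene's estimated counts. Genes entered if they had at least 2 annotated transcripts and a mean gene count of at least 100 over the 6 libraries compared. That left 9214 genes, of 22471 genes with at least 2 transcripts and 58592 genes in all, and these 9214 genes carried 94250 transcripts. At the count limit, 121 of the genes lay less than 10% above it, and 129 further genes less than 10% below it. SUDHL5 is an established cell line from a human diffuse large B cell lymphoma, and CDK-TCIP1 is a bivalent compound made to bring the transcriptional kinase CDK9 to the transcription factor BCL6. The comparison set 3 libraries treated with 30 nM CDK-TCIP1 for 4 h against 3 DMSO libraries of 4 h. Neg1 and Neg2, the labels' names for the comparison compounds, were given at 30 nM for 4 h (2 libraries each) and for 2 h (2 libraries each), and CDK-TCIP1 was also given for 2 h, to 2 libraries at 10 nM, 4 at 30 nM and 3 at 100 nM. All cells received the same final concentration of DMSO, and all libraries were made from poly(A) RNA. Whether the replicates came from separate cultures is not in the labels. The spread behind each p-value is that between these libraries, and it may be technical.

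Most human genes yield several RNAs, which differ in the start site, in the exons and introns that splicing keeps or removes, and in the poly(A) site. Some of these RNAs keep an intron and often stay in the nucleus, and others carry an early stop codon that marks them for nonsense-mediated decay. Genes for SR proteins and other splicing factors are known for both kinds, through poison exons and retained introns that tune their own levels. CDK9 is the kinase of P-TEFb, which releases paused RNA polymerase II, and splicing and poly(A) site choice take place while the polymerase moves.

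The libraries of the 2 groups held 19656372 to 24875892 estimated counts, within a range of 17396484 to 26373153 over the whole series. Replicates of these groups differed by 5.25 to 7.40 times the sampling noise of counts (chi-square per degree of freedom), so none was a copy of another. Mitochondrial transcripts held 5.48 to 6.02% of counts in DMSO and 6.72 to 7.07% after CDK-TCIP1 at 4 h, and their part in the results was not tested. Except for LMO2, B cell and germinal centre markers stood at 32.1 CPM (estimated counts scaled to the library total) or more in all 6 libraries. LMO2 stood at 11.7 to 16.1 CPM in DMSO and 6.67 to 8.14 after CDK-TCIP1, and SERPINA9 at 151 to 161 and then 32.1 to 42.7. Summed over 5 T cell markers, the level was 60.7 to 64.5 CPM in the DMSO libraries and 24.1 to 25.6 in those with CDK-TCIP1. Nearly all of that sum was TRAC, with CD2 at 0. Myeloid, epithelial, fibroblast and erythroid marker sums stayed at or under 1.32 CPM.

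At the level of single transcripts, 218 of 20509 tested changed their share by both tests used, with 107 higher and 111 lower in CDK-TCIP1, in 191 genes. The tests covered transcripts with means over the 6 libraries of at least 5% of their gene and at least 10 counts. A transcript under 5% in 1 group was thus tested only if it was above 5% in the other, which fixed its direction. Genes with at least 2 transcripts inside these limits were tested. That was 6803 of the 9214 genes, with a median of 3 transcripts each and 60.5% of the counts of the 9214 genes. The other 2411 genes were not tested. By the edgeR diffSpliceDGE test, which sets each transcript against the other tested transcripts of its gene, 293 transcripts (1.43%) passed an adjusted p of 0.05, with 137 higher and 156 lower, in 262 genes (3.85%). That test pools the spread over the transcripts of a gene. The words rose, fell and changed are therefore kept for transcripts that also passed a second edgeR test, of each transcript alone. It set each against the total of its gene's tested transcripts, while the printed shares are of all the gene's transcripts. This second test called 1580 transcripts (7.70%) in 1034 genes (15.2%). Both tests together called 1.06% of the transcripts tested, 0.522% as higher and 0.541% as lower. At the level of whole genes, the diffSpliceDGE F test found a changed mixture of isoforms in 1199 of 6803 genes (17.6%).

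The 218 transcripts differed by a median of 16.3 percentage points, and 170 of them by at least 10 points (80 higher, 90 lower). Over all 20509 transcripts tested the median difference was 4.39 points, and 54.8% lay within 5 points. All 218 had shares that did not overlap between the 3 and 3 libraries, which was so for 28.7% of all tested transcripts. The transcript with the highest mean share was a different one in the 2 groups in 806 genes, and 46 of these held a transcript called by both tests.

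The clearest common direction was toward transcripts annotated as retained intron. Summed within each gene, the retained intron share rose in 99 and fell in 23 of 2056 genes tested, 4.82% and 1.12%. Over all 8449 pairs of a gene and a biotype tested, diffSpliceDGE called 322 (3.81%), and both tests together called 286 (3.39%), of which 184 were higher (2.18%) and 102 lower (1.21%). Protein coding transcripts gave the opposite balance, with a share that rose in 13 and fell in 28 of 3707 genes. Transcripts annotated for nonsense-mediated decay went both ways, with 44 rises and 33 falls in 1486 genes, and the remaining biotypes had 28 rises and 18 falls in 1200 genes. The median difference over the genes tested was 1.36 points for retained intron, 0.10 points for nonsense-mediated decay and -0.86 points for protein coding. With a limit of 10 points, retained intron shares rose in 43 genes and fell in 11, those for nonsense-mediated decay rose in 24 and fell in 24, and protein coding shares rose in 9 and fell in 27.

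**Figure D1:**
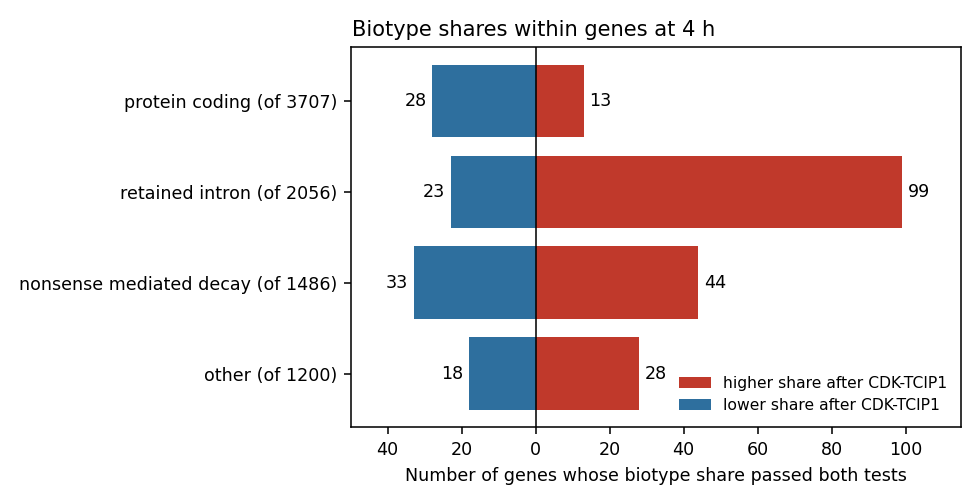
Genes whose summed share of a biotype was higher or lower in CDK-TCIP1 than in DMSO at 4 h, called by both tests. Bars count genes and start at 0. For retained intron the bar for higher shares stands at 99 genes and the one for lower shares at 23, while protein coding stands at 13 and 28.

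The same direction showed in the sum over all 9214 genes, where it was small. Retained intron transcripts held 3.18, 3.19 and 3.21% of the counts in the DMSO libraries and 3.62, 3.80 and 3.79% after CDK-TCIP1. All 3 treated libraries lay above all 3 DMSO libraries, by 0.54 points of the means or 16.9% of the DMSO value. The exact two-sided permutation test gave p = 0.1, the smallest that 3 against 3 allows, and 0.1 after adjustment over the 3 biotypes. The share for nonsense-mediated decay was 2.61% ± 0.015 (SD, n = 3) in DMSO and 2.53% ± 0.015 (SD, n = 3) after CDK-TCIP1, and protein coding transcripts held 91.5% and 91.1%. Those 2 differences, -0.08 and -0.49 points, also had an exact permutation p of 0.1. Both depended on the measure. By TPM the protein coding groups overlapped, at 86.39 to 86.53% and 86.04 to 86.51%, and as a mean over genes of the share within a gene those for nonsense-mediated decay did, at 3.74 to 3.84% and 3.74 to 3.78%. In the comparison compounds at 4 h, the retained intron share was 3.34 and 3.19% with Neg1 and 3.35 and 3.25% with Neg2, so every one of these 4 libraries lay below the 3 treated with CDK-TCIP1. At 2 h the 4 libraries of 30 nM CDK-TCIP1 held 3.26, 3.25, 3.49 and 3.5%, which overlapped the 3.33 to 3.46% of the Neg1 and Neg2 libraries of 2 h. The 10 nM libraries of 2 h held 3.36 and 3.29%. The 3 libraries of 100 nM at 2 h held 3.15, 3.23 and 3.26%, all below those of Neg1 and Neg2, the opposite order to that of 30 nM at 4 h. They were also the lower ones by TPM, which scales for transcript length, at 4.99 to 5.26% against 5.69 to 6.08%. Shares for nonsense-mediated decay did not overlap at 2 h, at 2.51 to 2.54% in the 9 libraries of CDK-TCIP1 over all doses and 2.61 to 2.64% with Neg1 and Neg2. By TPM these groups were also apart, at 2.50 to 2.64% and 2.74 to 2.77%. As a mean over genes of the share within a gene they overlapped, at 3.69 to 3.91% and 3.75 to 3.85%.

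**Figure D2:**
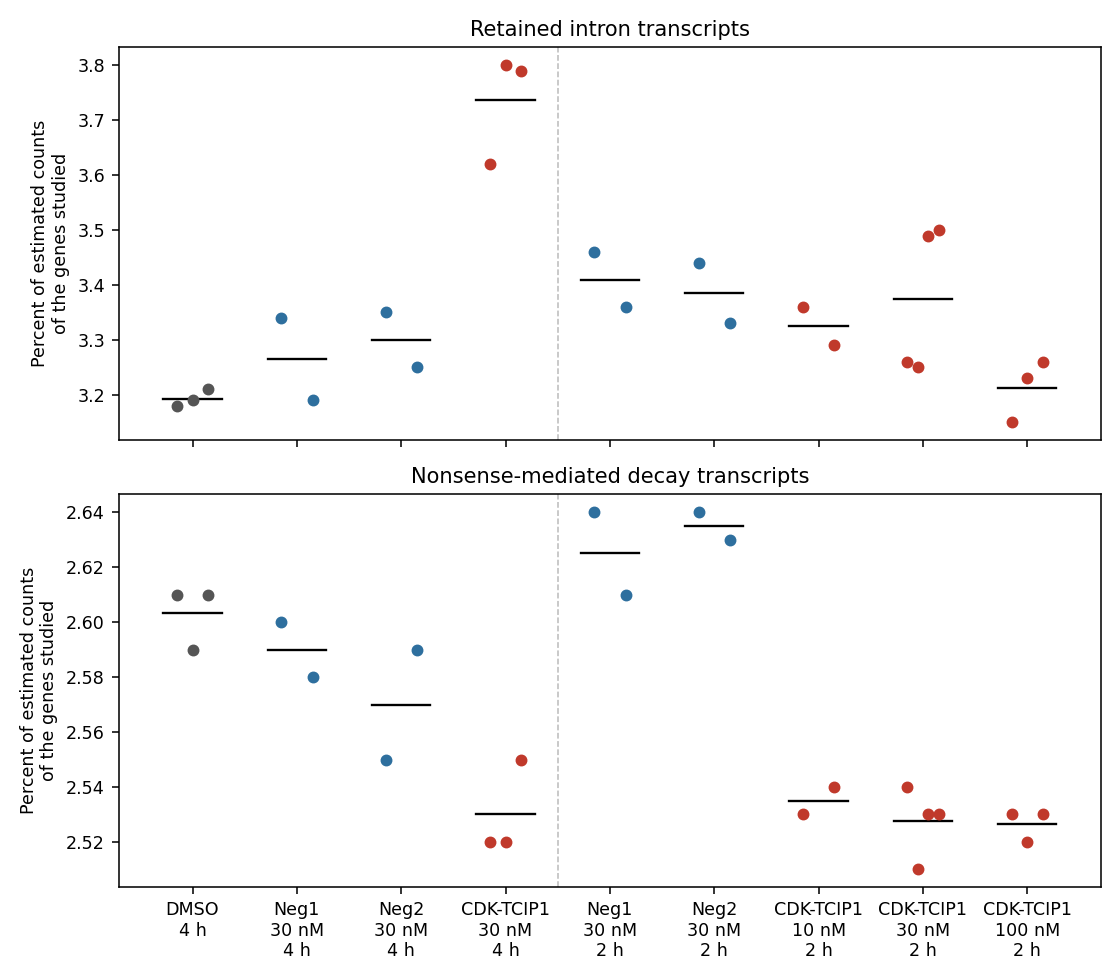
Share of the counts of the 9214 genes on retained intron and on nonsense-mediated decay transcripts, in percent, with a point for each of the 23 libraries by group and a line at each group mean. The dashed line parts 4 h from 2 h, and the axes do not start at 0. The 3 libraries of CDK-TCIP1 at 4 h lie between 3.62 and 3.80% retained intron, and the 3 DMSO libraries between 3.18 and 3.21%.

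Of the genes of splicing, 20 held called transcripts. Genes of 2 lists, SR proteins with hnRNPs and a list of splicing kinases, L cyclins and other spliceosome regulators, were read together. Of their 51 genes tested, these 20 held a transcript called by diffSpliceDGE. In the first list 11 of 25 genes did (44.0%), and in the second 9 of 26 (34.6%), against 3.85% of all genes tested. Both tests together called 10 and 9 of these genes. Counts were deeper in these lists, with a median gene count of 11162.8 and 3120.7 against 840.6 over all genes tested, and its part in the number of calls was not tested. The median over genes of the largest share difference, which does not depend on a call, was 8.55 points in the first list, 11.57 points in the second and 7.67 points over all genes. Of 29 transcripts called by both tests in these lists, the 8 retained intron transcripts were all higher, 6 of 7 transcripts for nonsense-mediated decay were higher, and 10 of 14 protein coding transcripts were lower.

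DDX5 and DDX17 encode closely related DEAD box RNA helicases that act in splicing, and in each of them a retained intron transcript rose. The first bases of the 2 introns are shown because the retained transcripts share the exon end before them, with exon in lower case and intron, or the next exon where it is spliced, in capitals. All junction sequences here were read from the GENCODE 29 transcripts of GRCh38, 5′ to 3′ on the gene's strand.
DDX5-215, intron chr17:64500774-64502009 kept (minus strand): cctccagagggctagGTTAGTACAAACTCG
DDX5-218, the same intron spliced out: cctccagagggctagATGTGGAAGATGTGA
DDX17-201, intron chr22:38488116-38492055 kept (minus strand): cctcccgtgggctagGTTTGTATAGATAGG
The DDX5 intron is 1236 bases long and the DDX17 intron 3940 bases. Across the exon ends and intron starts, 22 of 30 bases were identical between the genes, with gggctagGTT as the longest shared run of 10 bases. DDX5-215 held 23.9, 24.1 and 25.7% of its gene in DMSO and 44.4, 47.8 and 47.3% after CDK-TCIP1. Its share rose by 0.88 ± 0.13 (log2, SE) relative to the other DDX5 transcripts, with an adjusted p of 4.53e-05. DDX17-201 held 21.5, 24.0 and 24.5% in DMSO and 44.5, 45.7 and 45.0% after CDK-TCIP1, a rise of 0.97 ± 0.13 with an adjusted p of 3.87e-06. Groups did not overlap in either gene, and both calls held without any single one of the 6 libraries. The partners that fell differed in kind. In DDX17 it was the protein coding DDX17-203, from 59.5% ± 0.79 to 33.6% ± 3.5 (SD, n = 3), with an adjusted p of 1.84e-04. In DDX5 it was DDX5-218, annotated for nonsense-mediated decay, from 39.5% ± 4.7 to 22.5% ± 2.9, with an adjusted p of 9.02e-05. DDX5-215 also holds a 166-base exon, chr17:64504677-64504842, that DDX5-218 lacks. Summed over DDX5 transcripts, the protein coding share was 34.8% in DMSO and 29.5% after CDK-TCIP1, with an adjusted p of 0.367. At 2 h, with 30 nM CDK-TCIP1 against Neg1 and Neg2, DDX5-215 stood at 38.9% against 27.7% and DDX17-201 at 35.4% against 26.7%, with adjusted p values of 0.056 and 0.112.

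RBM39, an SR-related protein that recognises splice sites with U2AF, lost most of its leading coding isoform, with the lowest adjusted p of the transcripts named. RBM39-203 held 38.3, 39.1 and 36.5% of the gene in DMSO and 7.11, 6.24 and 11% after CDK-TCIP1. The groups lay far apart, and the share fell by 2.07 ± 0.16 (log2, SE), with an adjusted p of 1.7e-16. At 2 h it was 11.9% with 30 nM CDK-TCIP1 and 34.8% with Neg1 and Neg2, an adjusted p of 2.91e-11. Other RBM39 biotypes held more of the gene. Retained intron transcripts rose in sum from 21.3 to 43.4%, and transcripts for nonsense-mediated decay rose from 24.5 to 37.3%. RBM39-223, the leading retained intron transcript, went from 13.5% ± 1.1 to 24.9% ± 1.3 (SD, n = 3). RBM39-236, one of the transcripts for nonsense-mediated decay, held 2.59, 2.09 and 1.53% in DMSO and 10.8, 9.45 and 8.95% after CDK-TCIP1, with an adjusted p of 2.16e-07. It carries a 156-base exon, chr20:35713702-35713857 on the minus strand, that RBM39-203 skips, and its junctions are shown because they tell the 2 transcripts apart, with the downstream exon in capitals.
RBM39-236, into the extra exon: caagacttgcagaggGGTCTGGCTCTGTTG
RBM39-236, out of the extra exon: tggctaatttctgtgGTACAGGTTTGCAGA
RBM39-203, exon skipped: caagacttgcagaggGTACAGGTTTGCAGA
The upstream exon end is the same in the first and the third line, and the downstream exon start in the other pair. In levels over the whole library, RBM39-203 averaged 120.0 CPM without and 26.8 CPM with CDK-TCIP1, and RBM39-223 averaged 42.8 and 82.1 CPM.

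SRSF3 and SRSF7, small SR proteins that bind exons and also act in mRNA export and poly(A) site choice, both shifted in share toward transcripts annotated for nonsense-mediated decay. SRSF3-203 carries a 456-base exon, chr6:36599821-36600276 on the plus strand, that the coding SRSF3-202 lacks. SRSF7-208 keeps an 875-base intron, chr2:38748654-38749528 on the minus strand. The junctions mark where these RNAs leave the coding path, with the extra exon, the exon after it and the kept intron in capitals in turn.
SRSF3-203, into the extra exon: tccacctcgtcgcagAGTCACCATCATGTC
SRSF3-203, out of the extra exon: tgaaacccaaaactaATCTCCAAGAAGGAG
SRSF7-208, into the kept intron: gcgaagaagaagcagGTATTTATTTTAATA
SRSF3-203 held 8.59, 7.41 and 8.62% in DMSO and 15.2, 15.7 and 16.8% after CDK-TCIP1, with an adjusted p of 2.53e-03. Over the same libraries SRSF3-202 fell from 48.1, 51.4 and 43.9% to 26.3, 26.3 and 24.3%, with an adjusted p of 6.92e-03 that became 0.0537 without DMSO replicate 2. Neither transcript's groups overlapped. In levels over the whole library, SRSF3-203 averaged 57.9 CPM without and 50.5 CPM with CDK-TCIP1, while SRSF3-202 averaged 338 and 82.0 CPM. Summed by biotype, SRSF3 went from 71.7 to 46.9% protein coding and from 19.6 to 36.1% retained intron. SRSF3-207, a retained intron transcript, stood at 16.7% in DMSO and 25.6% after CDK-TCIP1. Its adjusted p values were 0.0405 by diffSpliceDGE and 0.268 when tested alone. The level of SRSF3-207 averaged 118 CPM without and 81.6 CPM with CDK-TCIP1. SRSF7-208 held 26.8, 27.1 and 28.8% in DMSO and 43.3, 48.3 and 51.0% after CDK-TCIP1, with an adjusted p of 0.0175. That call was lost without any 1 of 5 of the 6 libraries, with an adjusted p of up to 0.102 without DMSO replicate 1. The level of SRSF7-208 averaged 66.4 CPM without and 70.6 CPM with CDK-TCIP1, and that of the coding SRSF7-201 averaged 80.2 and 31.1 CPM. The summed share for nonsense-mediated decay in SRSF7 rose from 32.3 to 54.0%, with an adjusted p of 1.66e-07. At 2 h neither gene differed in these transcripts by the test. SRSF7-208 stood at 32.0% with CDK-TCIP1 and 31.7% with Neg1 and Neg2, and SRSF3-202 at 47.8 and 49.5%, each with an adjusted p of 1. SRSF3-203 stood at 13.8 and 10.2%, with an adjusted p of 0.386.

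**Figure D3:**
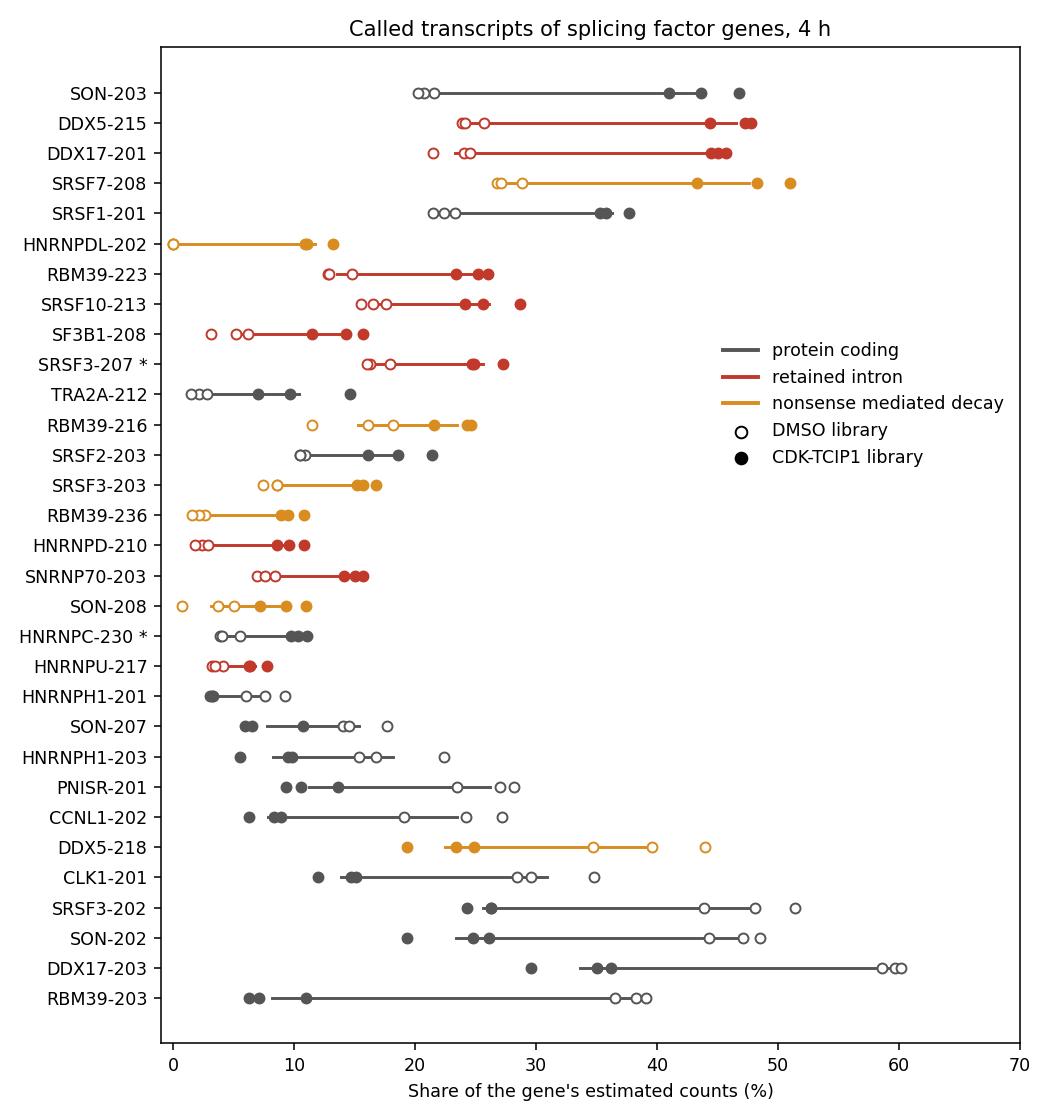
Share of the gene, in percent, of the 31 called transcripts in the 2 lists of splicing genes, with open points for DMSO and filled points for CDK-TCIP1 libraries of 4 h, lines that join the group means, colors for biotypes and an asterisk where the test alone did not call the transcript. Retained intron transcripts lie higher in the CDK-TCIP1 libraries throughout, while coding transcripts such as RBM39-203 and SRSF3-202 lie lower.

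Other SR protein genes shifted by less. SRSF1-201, from the gene of the archetypal SR protein, rose from 21.5, 23.3 and 22.4% to 35.3, 37.7 and 35.8%, with an adjusted p of 1.27e-03. Of its bases, 95.1% also lie in exons of other annotated genes, so reads could be shared with those. SRSF2-203 rose from 10.9, 10.5 and 10.5% to 16.1, 18.6 and 21.4%, a call with an adjusted p of 3.31e-03 that became 0.0592 without CDK-TCIP1 replicate 3. Exons of other annotated genes cover 33.8% of its bases. SRSF10-213, a retained intron transcript, rose from 17.6, 15.5 and 16.5% to 24.1, 28.7 and 25.6%, with an adjusted p of 0.0291 that reached 0.188 without DMSO replicate 2. None of these 3 had overlapping groups. TRA2A-212 rose from 2.15, 1.43 and 2.77% to 9.66, 14.6 and 7.02%, with an adjusted p of 0.0175 that reached 0.164 without CDK-TCIP1 replicate 2. TRA2A encodes a partner of the SR proteins that binds exonic enhancers.

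Among hnRNPs, the proteins that package nascent RNA and often oppose SR proteins, transcripts with a low share in DMSO were among those that rose. A transcript under 5% in DMSO was tested only if it was higher after CDK-TCIP1, so the filter fixed the direction of such transcripts. HNRNPDL-202, annotated for nonsense-mediated decay, was at or near 0% in all 3 DMSO libraries and at 10.9, 11.1 and 13.2% after CDK-TCIP1, with an adjusted p of 9.83e-09. The HNRNPDL share for nonsense-mediated decay as a whole rose from 9.66 to 19.8%. HNRNPD-210, a retained intron transcript of the gene for AUF1, which binds AU-rich elements, rose from 2.34, 2.88 and 1.82% to 9.55, 8.59 and 10.8%, with an adjusted p of 4.55e-05. HNRNPU-217, another retained intron transcript, rose from 4.11, 3.17 and 3.49% to 6.26, 7.79 and 6.35%, with an adjusted p of 0.0346 that reached 0.217 without DMSO replicate 2. In HNRNPH1, a factor that binds G-rich runs, the coding transcript HNRNPH1-203 fell from 16.8, 15.4 and 22.4% to 9.80, 9.48 and 5.51%, with an adjusted p of 5.59e-06, and the retained intron sum rose from 27.8 to 40.1%.

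Proteins of nuclear speckles and of the spliceosome core followed. SON scaffolds the speckles, and its transcripts SON-203 and SON-202 traded places. SON-203 rose from 21.6, 20.7 and 20.2% to 41.0, 43.6 and 46.8%, with an adjusted p of 9.38e-05. SON-202 fell from 44.3, 47.1 and 48.5% to 26.1, 24.8 and 19.3%, with an adjusted p of 4.49e-03 that became 0.062 without CDK-TCIP1 replicate 3 and 0.0879 in a fit of the 6 libraries alone. The leading isoform of SON was thus a different one in the 2 groups. SF3B1-208, a retained intron transcript of the branch point factor's gene, rose from 6.20, 5.19 and 3.10% to 14.3, 15.7 and 11.5%, with an adjusted p of 9e-07. SNRNP70-203, a retained intron transcript of the U1 snRNP 70K gene, rose from 6.93, 7.62 and 8.42% to 15, 15.7 and 14.1%, with an adjusted p of 0.022 that reached 0.139 without DMSO replicate 1. Against Neg1 and Neg2 at 4 h its adjusted p was 0.64. PNISR-201, from a gene for an SR-related protein, fell from 27.0, 28.2 and 23.5% to 10.6, 9.34 and 13.6%, an adjusted p of 0.0422 that was lost without any 1 of the 6 libraries.

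The kinase CLK1, which phosphorylates SR proteins, and cyclin L1, the partner of CDK11 in splicing, lost share of a coding isoform. CCNL1-202 held 24.2, 19.1 and 27.2% in DMSO and 8.93, 8.31 and 6.23% after CDK-TCIP1, with an adjusted p of 0.0112 that reached 0.0927 without CDK-TCIP1 replicate 3. The retained intron transcript CCNL1-215 stood at 28% ± 3.6 and 36.3% ± 2.8 (SD, n = 3), with an adjusted p of 0.428. CLK1-201 held 34.8, 28.4 and 29.6% in DMSO and 15.1, 14.7 and 12% after CDK-TCIP1. Its adjusted p of 0.0283 was lost without any 1 of the 6 libraries, reaching 0.166 without CDK-TCIP1 replicate 3. Its partner CLK1-204, annotated for nonsense-mediated decay, stood at 9.60 and 16.6% with an adjusted p of 0.882. At 2 h CCNL1-202 stood at 5.46% with CDK-TCIP1 and 19.2% with Neg1 and Neg2, an adjusted p of 7.22e-05.

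Outside the splicing lists, the retained intron share rose in genes of many functions. It rose from 6.09 to 21.9% in CDCA7, a MYC target that recruits HELLS to chromatin, from 26.8 to 53.5% in GSE1, a chromatin protein gene, and from 29.2 to 57.5% in ATAD3B, a mitochondrial ATPase gene. PAXBP1 rose from 30.9 to 54.8%, and DDX39B, the helicase of mRNA export, from 30.4 to 48.3%. NELFA, a subunit of the pausing factor that P-TEFb acts on, rose from 3.47 to 15.3%, though its treated libraries were spread, at 6.62, 21 and 18.3%. The largest rises of single retained intron transcripts were in UBE2G2, FAM136A and DDX5. UBE2G2-206, of a ubiquitin-conjugating enzyme of the endoplasmic reticulum, held 29.7, 28.2 and 30.1% in DMSO and 49.6, 53.2 and 55.7% after CDK-TCIP1, with an adjusted p of 5.73e-03. FAM136A-205, of a mitochondrial protein gene, held 3.94, 6.90 and 2.14% in DMSO and 26.3, 31.3 and 22.0% after CDK-TCIP1, with an adjusted p of 2.92e-03 that became 0.0648 without DMSO replicate 3. Both had groups that did not overlap. The FAM136A transcripts leave the same exon and resume at different places, with the bases after the junction in capitals. The next exon of FAM136A-205 starts inside the intron that FAM136A-201 removes and overlaps the next exon of FAM136A-201.
FAM136A-205, retained intron transcript, over a 321-base intron: atccggaagatgcagGTGAGCGGCCCGAGG
FAM136A-201, protein coding, over a 944-base intron: atccggaagatgcagGGTCTCATGTTCCGG
FAM136A-201 stood at 94.2% in DMSO and 69.8% after CDK-TCIP1, not called by diffSpliceDGE (adjusted p of 0.802) and called when tested alone (1.12e-04).

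A smaller set went the other way and lost a retained intron transcript. DCTN5-203, of a dynactin subunit gene, is a single unspliced stretch of 3405 bases, and it fell from 37.7, 37.1 and 36.0% to 16.4, 13.3 and 11.7%, with an adjusted p of 5.88e-05. The groups did not overlap, and the call held without each library in turn. The coding DCTN5-201 stood at 54.7% ± 1.1 and 82.3% ± 3.5 (SD, n = 3), called when tested alone (2.06e-08) but not by diffSpliceDGE (0.0794). Another annotated gene on the same strand covers 30.1% of the bases of DCTN5-201. At 2 h DCTN5-203 was already at 11.3% with CDK-TCIP1, against 36.9% with Neg1 and Neg2, with an adjusted p of 2.86e-10. IMP4-208, of a ribosome assembly factor gene, fell from 27.9, 19.4 and 17.7% to 10.0, 12.2 and 4.78%, with an adjusted p of 2.53e-03 that became 0.0754 without CDK-TCIP1 replicate 3.

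Shifts in transcripts for nonsense-mediated decay were large in single genes and went both ways, with 44 rises and 33 falls against DMSO. Those counts are of calls by both tests. With diffSpliceDGE as the only test, 55 were higher and 44 lower against DMSO, and 69 were higher and 37 lower against Neg1 and Neg2 at 4 h. SRP19-208, of a signal recognition particle subunit gene, showed the largest rise among the called transcripts named, from 16.7, 20.1 and 13.7% to 59.0, 59.7 and 56.4%. Its adjusted p of 5.16e-03 became 0.0691 without DMSO replicate 3, and 22.9% of its bases lie in exons of other annotated genes. Its coding sequence is 129 bases and that of SRP19-201 is 330 bases. AKAP8L-220, of a nuclear anchoring protein gene, rose from 2.49, 7.51 and 5.58% to 23.5, 25.6 and 26.4%, with an adjusted p of 1.61e-03 that became 0.0526 without DMSO replicate 1. Exons of other annotated genes cover 34.0% of its bases. Summed shares also rose in PIDD1, a p53-induced death domain gene, from 19.7 to 40.8%. Falls were as large. The share for nonsense-mediated decay fell from 64.7 to 39.4% in PRPF4B, a splicing kinase gene, while its coding share rose from 31.2 to 53.9%. It fell from 28.5 to 11.1% in DIS3, the catalytic subunit gene of the exosome, and from 29 to 13.2% in CCNT2, a cyclin partner of CDK9. SNAPC3-206 fell from 51.5, 45.6 and 56.7% to 16.2, 19.1 and 17.7%, though its adjusted p of 0.0472 was lost without any 1 of the 6 libraries and, at 0.0702, in a fit of those 6 alone. ZGRF1-204 and ZNF213-209, the other transcripts of this kind picked by size, passed diffSpliceDGE (0.0236 and 0.0464) and not the test alone (0.137 and 0.204). Their mean shares were 0.70 and 24.9% for ZGRF1-204, and 38.7 and 1.58% for ZNF213-209, in DMSO and CDK-TCIP1.

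Many large switches ran between protein coding isoforms. HDAC7, a class IIa histone deacetylase gene active in B cell development, turned over its leading isoform. HDAC7-201 (chr12:47782722-47819785, minus strand) held 14.2, 12.9 and 14.0% in DMSO and 50.0, 54.3 and 60.6% after CDK-TCIP1, a rise of 2.07 ± 0.17 (log2, SE) with an adjusted p of 1.17e-11. HDAC7-202 fell from 72.9, 74.9 and 72.5% to 30.2, 25.2 and 25.6%, with an adjusted p of 1e-08. The 2 transcripts end at the same place, and their coding lengths are 2973 and 2862 bases. The groups lay far apart for both, and both calls held without each library in turn. At 2 h HDAC7-201 stood at 50.6% with CDK-TCIP1 and 13.7% with Neg1 and Neg2, with an adjusted p of 3.41e-13.

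EIF2S1, the alpha subunit of the initiation factor eIF2, moved between transcripts that differ at both ends. EIF2S1-202 fell from 31.9, 30.2 and 27.1% to 12, 7.64 and 6.48%, with an adjusted p of 5.18e-10. EIF2S1-201, whose start lies 4011 bases further upstream, whose end lies 2394 bases further downstream and whose coding length is the same 945 bases, rose from 45.3, 45.4 and 47.8% to 71.3, 78.0 and 76.9%. The adjusted p of that rise, 0.0155, was lost without any 1 of 4 libraries and reached 0.0992 without DMSO replicate 2. C5orf24-204 rose from 3.64, 8.49 and 1.5% to 34.9, 45.7 and 46.2%, with an adjusted p of 8.78e-06. REPIN1, a zinc finger gene, rose in REPIN1-203 from 23.1, 21 and 19.4% to 48.7, 56.9 and 43.8% and fell in REPIN1-202 from 52.1, 51.2 and 49.0% to 28.7, 22.3 and 37.0%, with adjusted p values of 1.95e-04 and 4.47e-04. These 2 transcripts share a coding length of 1701 bases, and the start of the rising one lies 2374 bases further upstream. RBM4-201 rose from 34.2, 24.5 and 39.2% to 62.3, 64.7 and 63.6%, with an adjusted p of 4.57e-03 that became 0.15 without DMSO replicate 2. RBM4 encodes a splicing regulator, and 94.2% of the bases of RBM4-201 also belong to the annotated readthrough gene RBM14-RBM4, so the 2 cannot be told apart over those bases.

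RIF1-205 and AMBRA1-211 completed the 8 largest rises among genes with a mean count of at least 500, and both varied between libraries. RIF1, which directs DNA break repair and replication timing, had RIF1-205 at 0.151, 0.342 and 0.00216% in DMSO and at 28, 13.2 and 46.6% after CDK-TCIP1, with an adjusted p of 7.74e-06. The 2 libraries of Neg2 at 4 h held 11.1 and 18.6%, and the higher of these lay within the range of the treated libraries. AMBRA1, a regulator of autophagy and of cyclin D turnover, had AMBRA1-211 at 7.40, 11.3 and 27.2% in DMSO and at 44.1, 45.7 and 52.3% after CDK-TCIP1. Its adjusted p of 0.0262 was lost without any 1 of 5 libraries, up to 0.319 without DMSO replicate 1, and was 0.0521 in a fit of the 6 libraries alone. Against Neg1 and Neg2, whose mean was 30.8%, its adjusted p was 0.858.

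**Figure D4:**
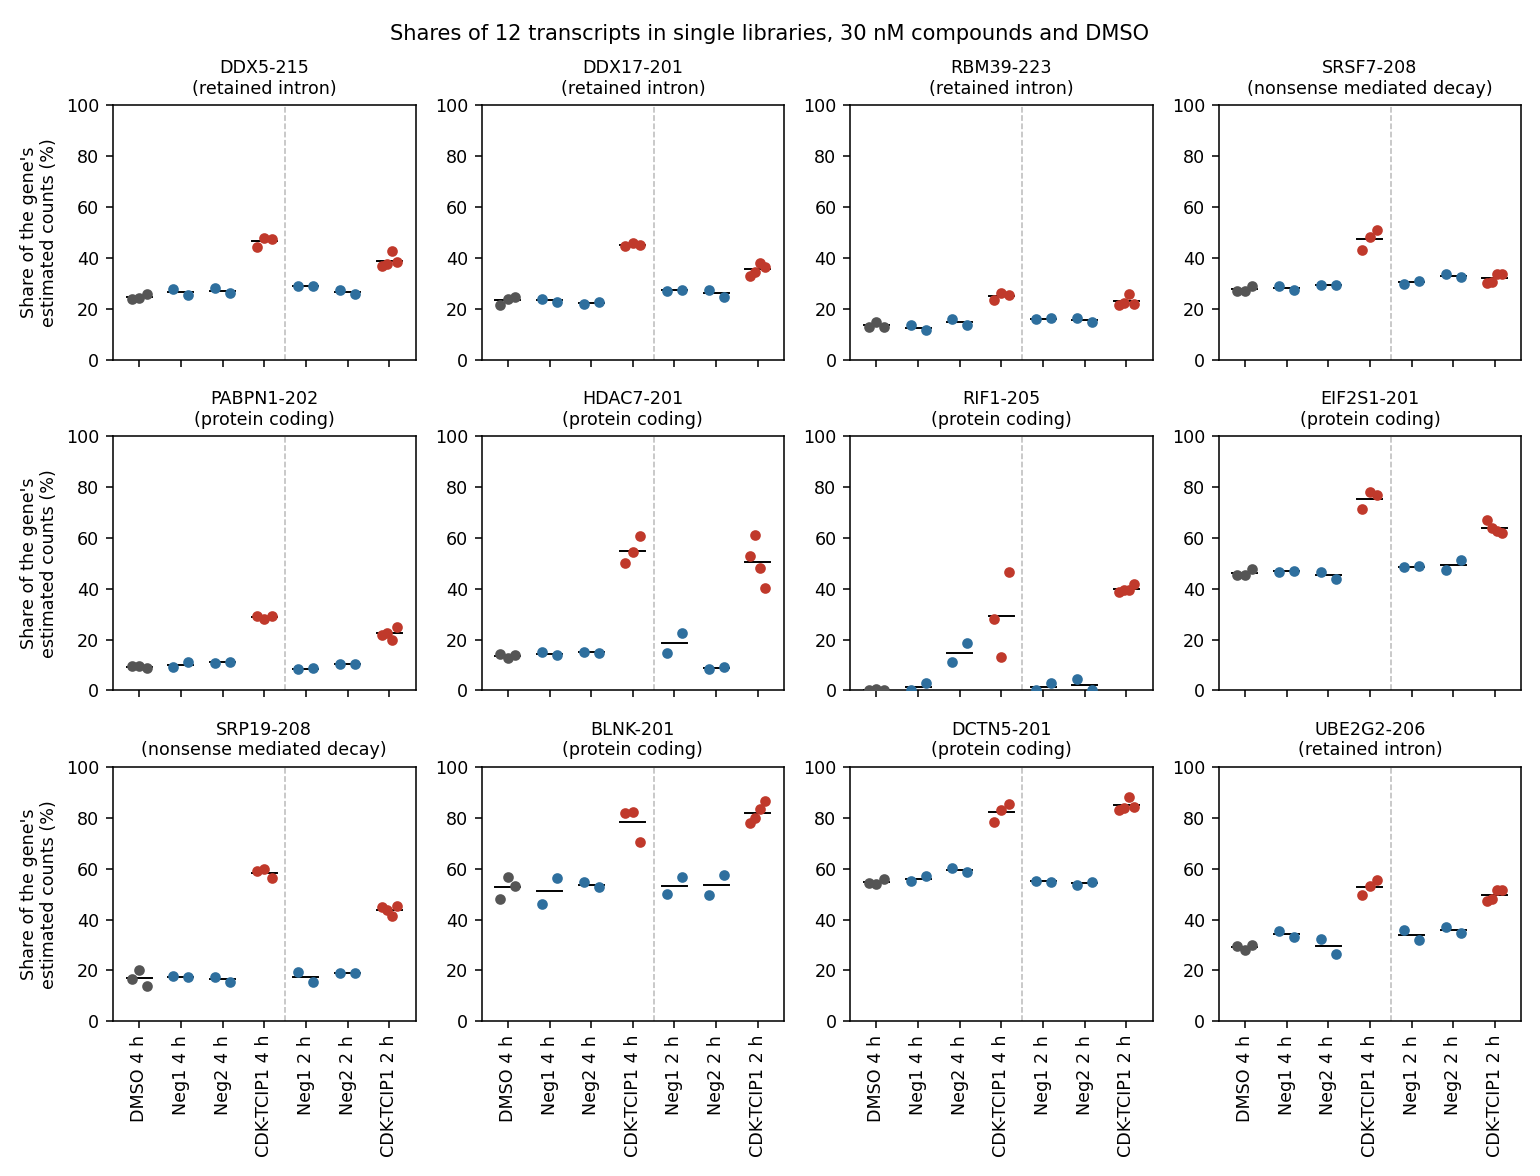
Share of the gene, in percent, of 12 named transcripts, with a point for each library of DMSO and of the compounds at 30 nM, a line at each group mean and a dashed line between 4 h and 2 h. HDAC7-201 lies at 12.9 to 14.2% in DMSO and at 50.0 to 60.6% after CDK-TCIP1, and RIF1-205 spreads from 13.2 to 46.6% after CDK-TCIP1.

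In transcription elongation and in 3′ end formation, 1 gene each held a called transcript. Of 24 elongation and kinase genes tested, 1 held such a transcript (4.2%), and of 22 genes of cleavage, polyadenylation and termination, PABPN1 alone did (4.5%), against 3.85% of all genes. Tested alone, 20.8 and 27.3% of the genes in these lists held a called transcript, against 15.2% of all genes, and at the level of whole genes 33.3 and 22.7% passed, against 17.6%. Median gene counts were 1642.6 and 2529.0 in these lists and 840.6 over all genes tested, and their part in these numbers was not tested. The median over genes of the largest share difference was 6.12 and 5.06 points, against 7.67 points over all genes. PABPN1 encodes the nuclear poly(A) binding protein that sets tail length and restrains proximal poly(A) sites. Its transcript PABPN1-202 keeps a 957-base intron, chr14:23324290-23325246 on the plus strand, although it is annotated as protein coding, with 888 bases of coding sequence against 918 in PABPN1-201. The capitals below are the kept intron and the exon that follows when it is removed.
PABPN1-202, intron kept: gggtcgcgtctacagGTCAGGATAGATGGG
PABPN1-201, intron removed: gggtcgcgtctacagGGGCCGGGCTAGAGC
PABPN1-202 rose from 9.48, 9.59 and 8.60% to 29.3, 28.2 and 29.2%, with an adjusted p of 1.46e-07, and the call held without each library in turn. At 2 h it stood at 22.4% with CDK-TCIP1 and 9.45% with Neg1 and Neg2, with an adjusted p of 1.84e-05. Of its bases, 23.6% also belong to the readthrough gene BCL2L2-PABPN1.

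In germinal centre and B cell genes, 2 of 29 genes tested held a called transcript (6.9%, against 3.85% of all genes), BLNK and CD22. Tested alone, 34.5% of this list held one, against 15.2% of all genes, and 34.5% passed at the level of whole genes, against 17.6%. The median gene count was 3728.0 in this list and 840.6 over all genes tested, and its part in these numbers was not tested. The median over genes of the largest share difference was 5.51 points, against 7.67 points over all genes. BLNK is the adaptor that links the B cell receptor to downstream enzymes. BLNK-202, which skips a 69-base exon (chr10:96215321-96215389, minus strand), fell from 43.2, 34.4 and 37.0% to 10.6, 8.31 and 19.5%. Its adjusted p of 2.53e-03 became 0.0696 without CDK-TCIP1 replicate 2. BLNK-201, which includes the exon and is otherwise alike in both ends, stood at 52.6% ± 4.3 and 78.3% ± 6.5 (SD, n = 3), called when tested alone (2.95e-04) but not by diffSpliceDGE (0.302). Because the length of the exon is a multiple of 3, coding lengths differ by the exon alone, 1368 against 1299 bases. The junctions that decide between the 2 are these, with the downstream exon in capitals.
BLNK-201, into the exon: ctccacctgaaaaagCTCCCATGGTGAATA
BLNK-201, out of the exon: caggaacagcttcagGTCGAAACAGTGGGG
BLNK-202, exon skipped: ctccacctgaaaaagGTCGAAACAGTGGGG
At 2 h BLNK-202 stood at 9.71% with CDK-TCIP1 and 35.8% with Neg1 and Neg2, with an adjusted p of 1.66e-06. CD22 encodes an inhibitory coreceptor, and its transcript CD22-204 fell from 11.6, 9.03 and 9.30% to 2.85, 3.84 and 5.65%, with an adjusted p of 0.0214 that reached 0.234 without CDK-TCIP1 replicate 1 and was 0.0807 in a fit of the 6 libraries alone.

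Of 24 apoptosis genes tested, 2 held a called transcript (8.3%, against 3.85% of all genes), BCL2L1 among them. Tested alone it was 33.3% against 15.2%, and at the level of whole genes 16.7% against 17.6%. The median gene count was 1142.3 in this list and 840.6 over all genes tested. The median over genes of the largest share difference was 10.46 points, against 7.67 points over all genes. BCL2L1-201, from the gene of BCL-XL, held 53.5, 85.2 and 17.2% in DMSO and 3.16, 0 and 9% after CDK-TCIP1, with an adjusted p of 5.64e-03 that became 0.0689 without CDK-TCIP1 replicate 2 and 0.238 in a fit of the 6 compared libraries alone. Its DMSO values were far apart, and its partner BCL2L1-203 has the same coding length of 699 bases. An annotated gene on the opposite strand covers 37.4% of the bases of BCL2L1-201. BCL2L11-206, of the gene for the death protein BIM, stood at 53.1, 37.9 and 42.4% in DMSO and 64.3, 53.8 and 71.4% after CDK-TCIP1, with an adjusted p of 0.977 by diffSpliceDGE and 0.0454 alone. MCL1 was not tested, because MCL1-202 alone passed the limits, at 97.2% and 98.6% of its gene.

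Among DNA repair genes and BCL6 corepressors, 3 genes held called transcripts. Of 24 repair genes tested, these were RIF1 and FANCI (8.3%, against 3.85% of all genes). FANCI-201, of a Fanconi anaemia gene, stood at 2.31, 2.80 and 5.54% in DMSO and 8.30, 9.33 and 11.4% after CDK-TCIP1, with adjusted p values of 0.0438 by diffSpliceDGE and 0.0582 alone. Of 18 corepressor and chromatin genes, MTA3, a NuRD subunit that works with BCL6, held them (5.6%). MTA3-203 rose from 7.60, 12.7 and 14.6% to 33.6, 38.6 and 32.5%, with an adjusted p of 9.58e-03 that became 0.113 without DMSO replicate 1 and 0.224 in a fit of the 6 libraries alone. MTA3-204 stood at 30.1% ± 3.6 and 8.25% ± 7.0 (SD, n = 3), and passed diffSpliceDGE (4.42e-03) but not the test alone (0.121).

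No gene of the p53 list or of the snoRNA host list held a transcript called by diffSpliceDGE. Of all genes tested 3.85% did, a rate at which lists this small can hold none. Among 47 transcripts in 17 genes of p53 and its regulators, 2 had an unadjusted p under 0.05, 3 passed when tested alone in edgeR, 6 passed in limma and 9 in DESeq2. Among 69 transcripts in 18 snoRNA host and lncRNA genes the counts were 4, 4, 7 and 12. Over all 20509 transcripts they were 1451, 1580, 2797 and 2976. The gene-level test passed 4 of 17 genes (23.5%) and 3 of 18 (16.7%), against 17.6% of all genes. MDM4 encodes a partner of MDM2 in holding p53 down. MDM4-207 held 0, 0.716 and 4.25% in DMSO and 46.9, 50.9 and 23.2% after CDK-TCIP1, groups that did not overlap, with adjusted p values of 0.0699 by diffSpliceDGE and 0.179 alone. At 2 h it stood at 36.9% with CDK-TCIP1 and 5.02% with Neg1 and Neg2, with an adjusted p of 0.0126.

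The genes of the 2 proteins that CDK-TCIP1 brings together were not called. BCL6-201 stood at 11.2, 9.10 and 11% in DMSO and 13.1, 15.9 and 11.3% after CDK-TCIP1, and BCL6-206 at 7.58, 6.76 and 6.69% and then 4.22, 4.48 and 4.69%, with adjusted p values of 1 and 0.882. CDK9-203, a transcript without annotated coding sequence, stood at 5.85% ± 2.1 and 10.3% ± 1.7 (SD, n = 3), with an adjusted p of 1. CCNT1-201, of the gene for the CDK9 partner cyclin T1, held 85.7% and 89.0%, and its sign turned without DMSO replicate 3 and by TPM. MYC-202 held 63.2% and 62.2%, again with an adjusted p of 1, and its sign turned without CDK-TCIP1 replicate 2 and by TPM. In AFF1, a scaffold gene of the super elongation complex, AFF1-201 stood near 0% in 2 DMSO libraries and at 97.1% in the third, and the 3 treated libraries lay between these values. HEXIM1, the P-TEFb inhibitor gene, is not among the 9214 genes.

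Across called switches of at least 10 points, the transcript that gained most share was longer in 60.9%, against 54.4% with or without a call. In 169 genes, a transcript was at least 10 points higher and another at least 10 points lower, with a diffSpliceDGE call in either. The transcript with the largest rise was longer than the one with the largest fall in 103 of the 169 (60.9%), against 52.4% over all 6803 genes and 54.4% over the 1454 genes that moved 10 points each way with or without a call. With a limit of 20 points that was 76.6% of 47 genes. Its 3′ end lay over 100 bases further downstream in 29.6% of the 169 genes and over 100 bases upstream in 20.1%, against 31.6 and 27.1% over all genes and 26.1 and 19.7% over the 1454. Both transcripts were protein coding in 76.9%, as in HDAC7 and BLNK, against 64.6% over all genes and 71.5% over the 1454. A protein coding transcript gave way to one of another biotype in 25 genes (14.8%), such as UBE2G2 and DDX17, against 15.9% over all genes and 12% over the 1454. The reverse was seen in 11 (6.5%), such as DCTN5, against 13.3 and 10.0%. These shares describe annotated structures and were not tested.

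Neither comparison compound gave many calls against the same DMSO libraries. Neg1 had 10 called transcripts (0.0488%), 3 higher and 7 lower, and Neg2 had 17 (0.0829%), 4 higher and 13 lower. When each transcript was tested alone, 2 and 4 passed. Set against the average of Neg1 and Neg2 at 4 h, CDK-TCIP1 gave 426 called transcripts (2.08%), 266 higher and 160 lower. This comparison shares its CDK-TCIP1 libraries with the one against DMSO. By biotype it called 353 pairs of a gene and a biotype (4.18%), with retained intron shares higher in 106 genes and lower in 31, shares for nonsense-mediated decay higher in 69 and lower in 37, and protein coding shares higher in 15 and lower in 36. Several of the named transcripts had shares near those of DMSO in the comparison compounds. RBM39-203 stood at 37.9% with the comparison compounds, HDAC7-201 at 14.7%, PABPN1-202 at 10.5% and DDX17-201 at 22.9%, beside 8.13, 55.0, 28.9 and 45.1% with CDK-TCIP1. Others had smaller shifts against Neg1 and Neg2 than against DMSO, at log2 values of 0.59 and 1.46 for AMBRA1-211, 2.71 and 7.42 for RIF1-205, 1.95 and 5.14 for ZGRF1-204, and -2.41 and -4.67 for ZNF213-209.

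Libraries of 2 h, none of them shared with the comparison at 4 h, gave 274 called transcripts (1.34%) for 30 nM CDK-TCIP1 against Neg1 and Neg2, and 187 by both tests (0.912%). Of these 187, 77 (41.2%) were also among the 218 called by both tests at 4 h, of which they made 35.3%, and all 77 had the same direction at both times. Of the 218, 207 had the same direction at 2 h, against 66.9% of all transcripts tested. HDAC7-201, DCTN5-203, BLNK-202 and CCNL1-202 were at or near their 4 h shares by 2 h. DDX5-215 and DDX17-201, at 38.9 and 35.4%, lay between the values of the comparison compounds and those of 4 h. The effect against Neg1 and Neg2 differed between 4 h and 2 h in 27 transcripts (0.132%) by diffSpliceDGE, and SRSF3-207 was the only one of those named that did. This retained intron transcript of SRSF3 stood at 13.6% with CDK-TCIP1 and 16.7% with Neg1 and Neg2 at 2 h, and at 25.6% and 13.2% at 4 h, with an adjusted p of 0.00405 for the difference.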

How the data were processed

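The 23 libraries of SUDHL5 RNA were grouped by their titles. Per the labels' protocols, poly(A) RNA gave paired-end NovaSeq libraries. DESeq2, kallisto, cutadapt and FastQC are named, per the submitters' processing notes, with no versions. The transcript set and strand option of kallisto were not given in the sources used here. Per transcript and library, the authors deposited the estimated counts and the TPM values of kallisto. An estimated count divides reads among the transcripts that could have given them, so shares of similar isoforms and of overlapping genes are less certain. Counts weight a transcript by its length, and the deposited TPM values were used as the length-scaled alternative.

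Transcripts were matched to GENCODE 29 (GRCh38) by identifier without version: 205804 of 227912 matched, 188725 of them with the same version and length, and those without a match held 1.16 to 1.28% of a library. Of the tested transcripts, 77.5% had the same version, and the others may differ in their ends from the annotation printed here. Biotype, structure and sequence come from this annotation. A share is the percent of the gene's summed estimated counts.

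Estimated counts were rounded and fitted with edgeR 4.0.16 (R 4.3.3) by quasi-likelihood with TMM scaling. All 23 libraries entered 1 fit with 14 residual degrees of freedom, and the common biological coefficient of variation was 0.526. The main test was diffSpliceDGE, whose log2 change in share is relative to the other tested transcripts of the gene, with SE = size of the change divided by the square root of F. The test of each transcript alone, with the total of its gene's tested transcripts as offset, was added after seeing the data. P-values were adjusted by Benjamini-Hochberg over all transcripts, genes or classes tested, and called under 0.05. P-values printed without a test's name are those of diffSpliceDGE. Scripts were tested on simulated data. There diffSpliceDGE recovered few of the small changes and made calls in variable transcripts. CPM are estimated counts scaled to the library total.

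Alternatives were DESeq2 size factors, the 6 compared libraries alone, a replicate block, other share filters, limma 3.58.1 (voom, diffSplice), DESeq2 1.42.0, TPM shares and leaving out each library. Named were the 8 genes with the largest called rise, the 3 largest rises and 2 largest falls of retained intron and nonsense-mediated decay transcripts (each at least 10 points, no overlap, mean gene count of at least 500), the 2 genes with the largest called difference in each of 10 gene lists, and 11 genes of interest. Other called transcripts of the 2 splicing lists, and genes given by their summed biotype shares, were chosen after their values were seen. Members and lists were chosen with earlier results of these data known. Results on a few genes that the naming rule or the summed shares would give are not reported here.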

Additional observations from a re-analysis of the deposited data

Results flagged for a closer look

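SRSF3-207, a retained intron transcript, was picked out because its effect differed between times: the adjusted p of the difference between 4 h and 2 h of CDK-TCIP1 against Neg1 and Neg2 was 0.00405 by diffSpliceDGE, and 0.367 when the transcript was tested alone. Its share was 25.6% against 13.2% at 4 h and 13.6% against 16.7% at 2 h.

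In the 4 libraries of 30 nM CDK-TCIP1 at 2 h, 2 transcripts had 1 library far from the other 3. These were ZNF213-209 with 35.9% of its gene in that library and MYC-205 with 9.32%. The check covered 72 named transcripts and 3 library shares, and chance marks about 1 in 20 such groups.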

How the results depend on the processing

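The count of transcripts called by diffSpliceDGE, 293, moved most with the test and the filter: limma called 2797, DESeq2 (on the 6 compared libraries alone) 2976 and the test of each transcript alone 1580, while a share limit of 1% gave 500 and no share filter 545. Of at least 10 points, limma called 1587, DESeq2 on the 6 libraries 1557 and the test alone 934, against 233. The test alone called 926 pairs of a gene and a biotype against 322. The cause was not tested. With a limit of 1%, Neg1 had 42 calls, Neg2 63, CDK-TCIP1 against both 722 and the 2 h comparison 494. Tested alone these were 2, 4, 1688 and 1414. With a limit of 20 points each way, the transcript that gained most share was longer in 76.6% of the genes with a switch. Same-numbered replicates did not deviate together in share (correlations 0.001, 0.018 and -0.002). Counting noise in low shares can hide a pairing, so this check cannot exclude one. With the replicate number as a block, 208 transcripts, 167 of at least 10 points, 793 genes and 297 pairs of a gene and a biotype were called.

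Leaving out 1 of the 6 libraries gave 199 to 234 transcripts, 163 to 189 of at least 10 points, 936 to 1074 genes and 239 to 264 pairs of a gene and a biotype. The library differences ranged from 0.51 to 0.60 points for retained intron, -0.08 to -0.07 for nonsense-mediated decay and -0.59 to -0.43 for protein coding. By TPM they were 0.42, -0.16 and -0.23 points, and by the mean share within genes 0.47, -0.03 and -0.53. Of 41 called named transcripts, 22 lost their call without at least 1 library, 11 with the block and 5 when tested alone, and none reversed. Reversals came only in transcripts that were not called. Over the fits without 1 library, CCNT1-201 ran from -0.01 (without DMSO replicate 3) to 0.12 on the log2 scale, CCNT1-205 from -0.80 to 0.14 (without DMSO replicate 3) and MYC-202 from -0.09 to 0.01 (without CDK-TCIP1 replicate 2). By TPM, CCNT1-201 differed by -5.9 points and MYC-202 by 1.0 points, and 74 of 76 named transcripts kept their direction. Leaving out 2 libraries of 2 h that stood apart in total composition gave 340 transcripts.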
